A study of Mus musculus with 10 samples.

Results

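Replication-dependent histone genes supply the bulk of the protein that packages newly made DNA. Their members were taken as every gene symbol of the mm10 RefSeq gene table that begins with Hist1h, Hist2h, Hist3h or Hist4h, which gave 68 of 23370 symbols. For a symbol with several transcripts, the one with the highest mean RPKM (a read count scaled by transcript length and library size) was kept. By symbol, the genes fall into linker histone H1 (6 genes) and the core histones H2A (18), H2B (19), H3 (12) and H4 (13). Hist3h2bb-ps, marked as a pseudogene by its symbol, is counted under H2B. The largest cluster, Hist1 on chromosome 13, held 54 of the genes, Hist2 on chromosome 3 held 10, Hist3 on chromosome 11 held 3 and Hist4 on chromosome 6 held 1. A gene was tested where it reached 1 RPKM in at least 2 of the 10 libraries, which 62 of the 68 did. Hist1h1a, Hist1h1t, Hist2h2bb, Hist3h2ba, Hist3h2bb-ps and Hist4h4 did not.

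The cells were mouse embryonic fibroblasts (MEFs) of the C57BL/6 strain. All of them, in both arms, carried a knock-in in which an H3.3-HA cDNA stands in place of the H3f3b gene, so an unmodified genotype was not part of the comparison. A pretreated arm and a naive arm were each sampled at 0, 1, 2, 4 and 6 h, and interferon-beta (IFN-β), an antiviral cytokine, is given as 100 U per ml. The sources used here give no dose, length or washout for the pretreatment. The hours are taken here as time with IFN-β. Each arm and time had 1 library of total RNA, and the sources do not say whether poly(A) RNA was selected. The libraries held 83907622 to 268464464 counts in the pretreated arm and 94402609 to 261020909 counts in the naive arm. All 9 fibroblast marker genes passed the filter. Marker genes of macrophages, endothelium, epithelium, muscle and nerve cells summed to at most 7.81 RPKM per list and library, with Emr1 and Myod1 at 0. The ribosomal precursor Rn45s took 3.90% and 2.85% of counts in the pretreated 0 h and 1 h libraries, against 0.974% to 1.51% in the other 8. The noncoding RNA H19 separated the pretreated libraries, with 43.7 RPKM at 1 h and 44.4 RPKM at 4 h but 9.19 to 9.78 RPKM at the other times, against 53.4 to 123 RPKM in the naive arm. Values without these libraries are given beside the comparisons of the arms and of 2 to 6 h with 0 h.

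In dividing cells the core histones are made together with new DNA, and H1 then binds the linker between nucleosomes. Their mRNAs mostly have no introns and end in a conserved stem-loop instead of a poly(A) tail. The stem-loop binding protein SLBP and the U7 small nuclear ribonucleoprotein direct the cut that forms this end, and the mRNAs are degraded when DNA synthesis stops. Many H2A and H2B genes sit head to head and share the stretch between them as a promoter.

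Sequences are shown for the shared or single promoters of genes that differed between the arms or fell with time, and for stem-loops of each class. The first pair shares the stretch chr13:23683960-23684198 and the second chr13:23571221-23571399. Both are written towards the H2A gene, which lies on the minus strand. Capitals mark the CCAAT box, the TATA box (TATAAA) and the octamer (ATTTGCAT), on either strand. The stretches upstream of Hist1h4h (chr13:23530794-23531043) and Hist1h1c (chr13:23738557-23738806) are on the plus strand. There capitals also mark the H1 box AAACACA. These sequences are RefSeq's, for build GRCm38.p6.
Hist1h2ac and Hist1h2bc: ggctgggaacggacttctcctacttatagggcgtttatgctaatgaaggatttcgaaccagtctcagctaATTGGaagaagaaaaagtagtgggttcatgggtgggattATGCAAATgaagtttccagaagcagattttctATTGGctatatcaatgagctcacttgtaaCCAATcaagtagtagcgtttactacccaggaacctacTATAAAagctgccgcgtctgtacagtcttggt
Hist1h2ae and Hist1h2bg: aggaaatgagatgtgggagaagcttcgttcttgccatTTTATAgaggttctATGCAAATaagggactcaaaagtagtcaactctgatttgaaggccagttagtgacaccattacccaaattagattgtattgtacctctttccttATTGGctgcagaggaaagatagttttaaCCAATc
Hist1h4h: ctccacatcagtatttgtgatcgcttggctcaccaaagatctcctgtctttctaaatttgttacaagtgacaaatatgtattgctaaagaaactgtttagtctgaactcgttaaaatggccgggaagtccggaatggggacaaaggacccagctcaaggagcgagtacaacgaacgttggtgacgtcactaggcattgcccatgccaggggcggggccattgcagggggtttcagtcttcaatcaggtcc
Hist1h1c: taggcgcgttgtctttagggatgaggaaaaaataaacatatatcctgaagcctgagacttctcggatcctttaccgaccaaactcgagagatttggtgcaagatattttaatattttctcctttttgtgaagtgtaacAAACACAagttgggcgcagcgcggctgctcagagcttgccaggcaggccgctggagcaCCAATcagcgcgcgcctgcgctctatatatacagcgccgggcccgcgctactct

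Both pairs hold the octamer between the genes, with CCAAT and TATAAA beside it. The 250 bases before Hist1h4h hold none of the 4 motifs as spelled here, and those before Hist1h1c hold 1 CCAAT and 1 H1 box. Of the members, 62 had an entry among RefSeq promoters (250 bases before to 50 after the start). CCAAT was found in 53 of these (85.5%), against 37.8% of 27025 promoters in the table. It was in all 50 of the H1, H2A, H2B and H3 promoters and in 3 of 12 H4 promoters. TATAAA was in 56.5% of the members' promoters, against 14.1% of all. ATTTGCAT was in 7 of 18 H2A and 6 of 16 H2B promoters, in 0 of the other classes and in 1.74% of all promoters. The H1 box was in 5 of 6 H1 promoters, against 7.25% of all. A core of the interferon-stimulated response element, taken as 2 GAAA repeats with any 2 bases between them, was in the promoter of 1 member, an H3 gene (1.61%, against 3.52% of all). All motifs were searched on both strands, and a match is a description of letters, not of binding.

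The stem-loops below are those of genes whose values follow, from GENCODE M21 transcripts (GRCm38), as 5 bases before and up to 5 after the 16 bases in capitals. They lie at chr13:21833026-21833049 (Hist1h2ap, minus strand), chr13:23571838-23571863 (Hist1h2bg, plus), chr13:23739507-23739532 (Hist1h1c, plus), chr13:23745042-23745067 (Hist1h3c, minus), chr13:23531453-23531478 (Hist1h4h, plus), chr13:21735432-21735457 (Hist1h4j, plus) and chr3:96262934-96262959 (Hist2h4, minus).
Hist1h2ap: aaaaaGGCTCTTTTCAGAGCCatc
Hist1h2bg: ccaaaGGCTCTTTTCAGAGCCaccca
Hist1h1c: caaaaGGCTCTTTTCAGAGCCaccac
Hist1h3c: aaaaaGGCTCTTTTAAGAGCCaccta
Hist1h4h: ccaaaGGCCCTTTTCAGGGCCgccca
Hist1h4j: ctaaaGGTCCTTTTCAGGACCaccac
Hist2h4: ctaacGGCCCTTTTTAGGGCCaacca

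The search took the 16 bases of Hist1h2ap, let positions 4, 10 and 13 be any base and allowed 2 further mismatches, on the transcript strand. It matched 46 of the 50 members with a coding transcript annotated 50 bases or more past the stop codon. Of other such coding genes, 31 of 20609 (0.150%) had a match in the first 100 bases. The form of Hist1h2ap, Hist1h2bg and Hist1h1c was the commonest, in 26 members (10 H2A, 8 H2B, 5 H3 and 3 H1), and no H4 gene had it. Counted from the first capital, the commonest H4 form (7 genes, Hist1h4h among them) differed from it by T4C and A13G. Hist1h4j differed by C3T, T4C, A13G and G14A, Hist2h4 by T4C, C10T and A13G, and Hist1h3c by C10A. The GENCODE transcript of Hist1h2bc, annotated 742 bases past its coding sequence, held no match. Of the 46 matched members, 23 had a transcript annotated 100 bases or more past the stem-loop. Among them were Hist1h1c (840 bases past it) and Hist1h4j (385 bases). Transcripts of Hist1h1c, Hist1h4j and Hist1h4h held AATAAA or ATTAAA, forms of the poly(A) signal, near their annotated ends. Whether the mRNAs counted here carried poly(A) tails was not tested.

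The copies resemble each other so closely that their reads cannot always be assigned. Of the 50-base stretches of a coding sequence, a median of 83.3% in H2A genes occurred in another member too, as did 79.8% in H2B, 84.7% in H3, 70.3% in H4 and 10.9% in H1 genes. The sources used here do not say how such reads were counted, or whether strand was used. Single copies within a class are therefore uncertain, and Hist1h2bq and Hist1h2br had the same span and identical counts. Hist1h2ap with Hist1h2ao, Hist2h2aa1 with Hist2h2aa2, and Hist1h4m with Hist1h4n also overlap, and class sums count shared reads more than once. In these bulk libraries, fewer cells making a histone mRNA and less mRNA per cell cannot be told apart.

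H2A mRNAs dominated by level. Hist1h2ap averaged 93.5 RPKM and Hist1h2ao 74.4 RPKM over the 10 libraries, followed by the H2B gene Hist1h2bc with 52.0 RPKM and the H1 gene Hist1h1c with 33.5 RPKM. The next 11 genes by mean level were all H2A, between 21.7 RPKM (Hist1h2ai) and 9.38 RPKM (Hist3h2a). The highest mean was 3.53 RPKM among H3 genes and 4.94 RPKM among H4 genes. H2A genes made up 45.3% to 69.1% of the members' summed RPKM in pretreated libraries and 59.7% to 81.7% in naive ones. Closest above the filter stood Hist1h3f, Hist1h2aa, Hist2h2be, Hist2h2ab and Hist1h3a, whose second highest library read 1.0 to 1.62 RPKM. Below it, the second highest library read 0.867 RPKM for Hist1h1a and 0.823 RPKM for Hist2h2bb. The smallest count of a tested member in any library was 11, and the median of the members' median counts was 289.

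Summed by class, mRNA of H1, H2B, H3 and H4 genes was more abundant in pretreated than in naive cells at 5 of 5 times, and that of H2A genes at 1 of 5 times. H2B genes summed to 124, 138, 119, 132 and 127 RPKM in pretreated cells at 0, 1, 2, 4 and 6 h, against 60.5, 67.5, 62.3, 89.8 and 85.9 RPKM in naive cells. The H2B sum was higher in pretreated cells at each time, and the lowest pretreated library was above the highest naive one. H1 genes summed to 47.6, 64.6, 50.9, 39.8 and 36.5 RPKM in pretreated cells, against 22.7, 40.5, 29.0, 25.8 and 28.6 RPKM in naive cells. H4 genes summed to 54.7, 37.4, 32, 25.8 and 27.8 RPKM in pretreated cells, against 21.4, 24.9, 17.9, 18.6 and 16.5 RPKM in naive cells. H3 genes summed to 42.6, 30.3, 28.0, 18.9 and 22.7 RPKM in pretreated cells, against 15.5, 20.5, 13.1, 14.0 and 15.3 RPKM in naive cells. For H3 and H4 the gap between the arms was widest at 0 h. H2A genes summed to 601, 309, 291, 179 and 248 RPKM in pretreated cells, against 537, 581, 294, 220 and 272 RPKM in naive cells. Pretreated cells were above naive ones in H2A at 0 h alone.

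**Figure D1:**
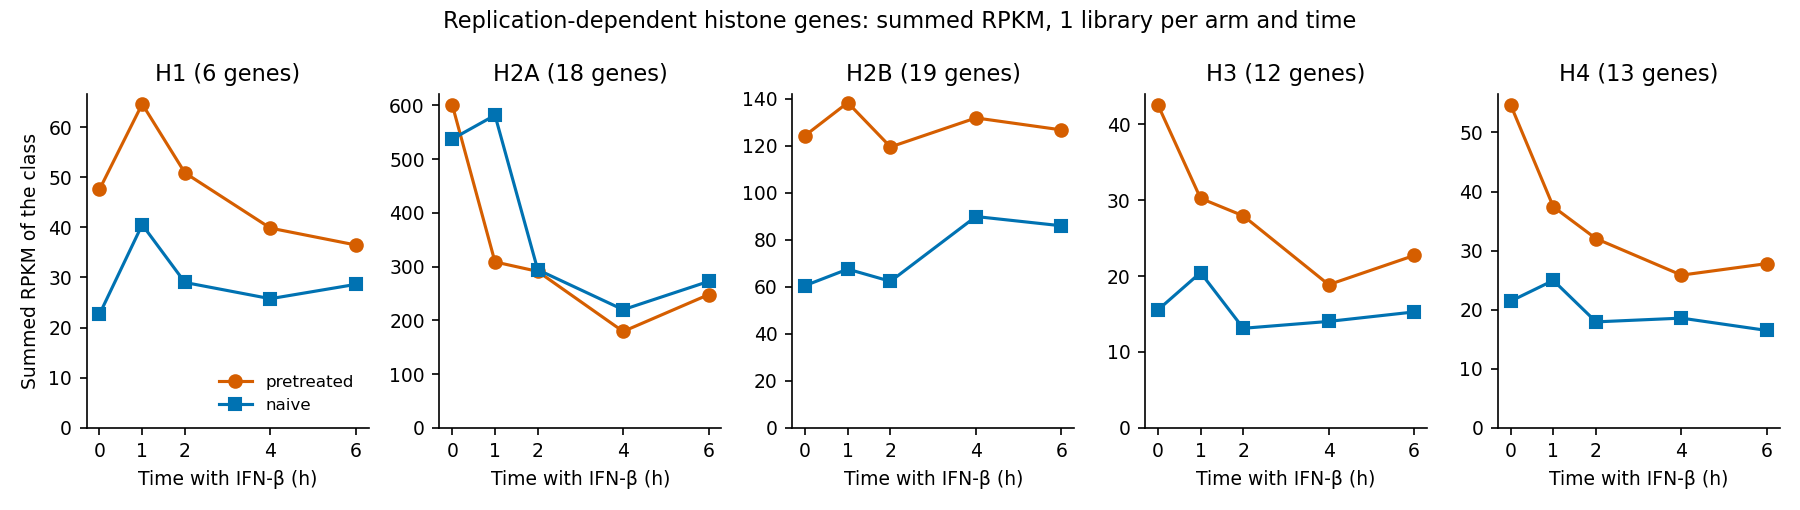
Summed RPKM of each histone class (vertical axes, from 0) against time with IFN-β in hours, for the pretreated arm (orange circles) and the naive arm (blue squares), 1 library per point. The pretreated curve lies above the naive one at 5 of 5 times for H1, H2B, H3 and H4. For H2A the curves cross, and both end well below their start.

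Tested over the 5 times with edgeR's quasi-likelihood test, with time as a block and Benjamini-Hochberg adjustment over 12168 genes, 4 members were called higher in pretreated cells and 0 lower. In the same test 0.386% of all genes were called higher and 0.879% lower (1.27% in either direction). The time points take the place of replicates here, so the p-values weigh a difference against its spread over time, not between cultures. DESeq2 called 30 members and limma 19, all higher in pretreated cells, against 4.73% and 0.92% of all genes called higher by these tools. Of 44 tested members other than H2A, 43 had a positive log2 fold change, with a median of 0.79. Some of the 44, named below, passed the filter only with the help of pretreated libraries. Of the 44, 40 had an unadjusted p under 0.05, and 4 passed after adjustment. The share of all genes at that unadjusted p is not given here. Copies may share reads, so the 40 are not separate results. Of 18 H2A genes, 13 had a negative log2 fold change, with a median of -0.24, and 0 were called by edgeR, DESeq2 or limma. The median over all genes tested was -0.00.

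The 4 called genes belong to 3 classes. Hist1h4h, an H4 gene, read 5.0, 4.10, 3.14, 3.89 and 4.01 RPKM in pretreated cells from 0 to 6 h, against 1.92, 1.56, 1.35, 1.78 and 1.35 RPKM in naive cells. Its log2 fold change was 1.32 ± 0.14 (SE, edgeR, adjusted p = 0.017), higher in pretreated cells at 5 of 5 times. Hist1h4j, another H4 gene, read 3.06, 2.45, 1.92, 1.76 and 1.62 RPKM in pretreated cells, against 1.2, 1.18, 0.947, 1.04 and 0.802 RPKM in naive cells. For both H4 genes the lowest pretreated library was above the highest naive one. The log2 fold change of Hist1h4j was 1.02 ± 0.18 (edgeR, adjusted p = 0.048).

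Hist1h2bc, the most abundant H2B gene, read 52.9, 67.8, 58.0, 72.5 and 75.7 RPKM in pretreated cells, against 31.9, 31.3, 29.5, 48.9 and 51.5 RPKM in naive cells. These arms did not overlap either, and the log2 fold change was 0.77 ± 0.10 (edgeR, adjusted p = 0.030). Hist1h1c, the main H1 gene of these cells, read 38.0, 57.3, 42.6, 35.4 and 32.2 RPKM in pretreated cells, against 19.5, 35.4, 25.9, 23.3 and 25.7 RPKM in naive cells. Its arms overlapped across times, because naive cells at 1 h stood above pretreated cells at 6 h, but at each time the pretreated library was higher. Its log2 fold change was 0.64 ± 0.10 (edgeR, adjusted p = 0.041).

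**Figure D2:**
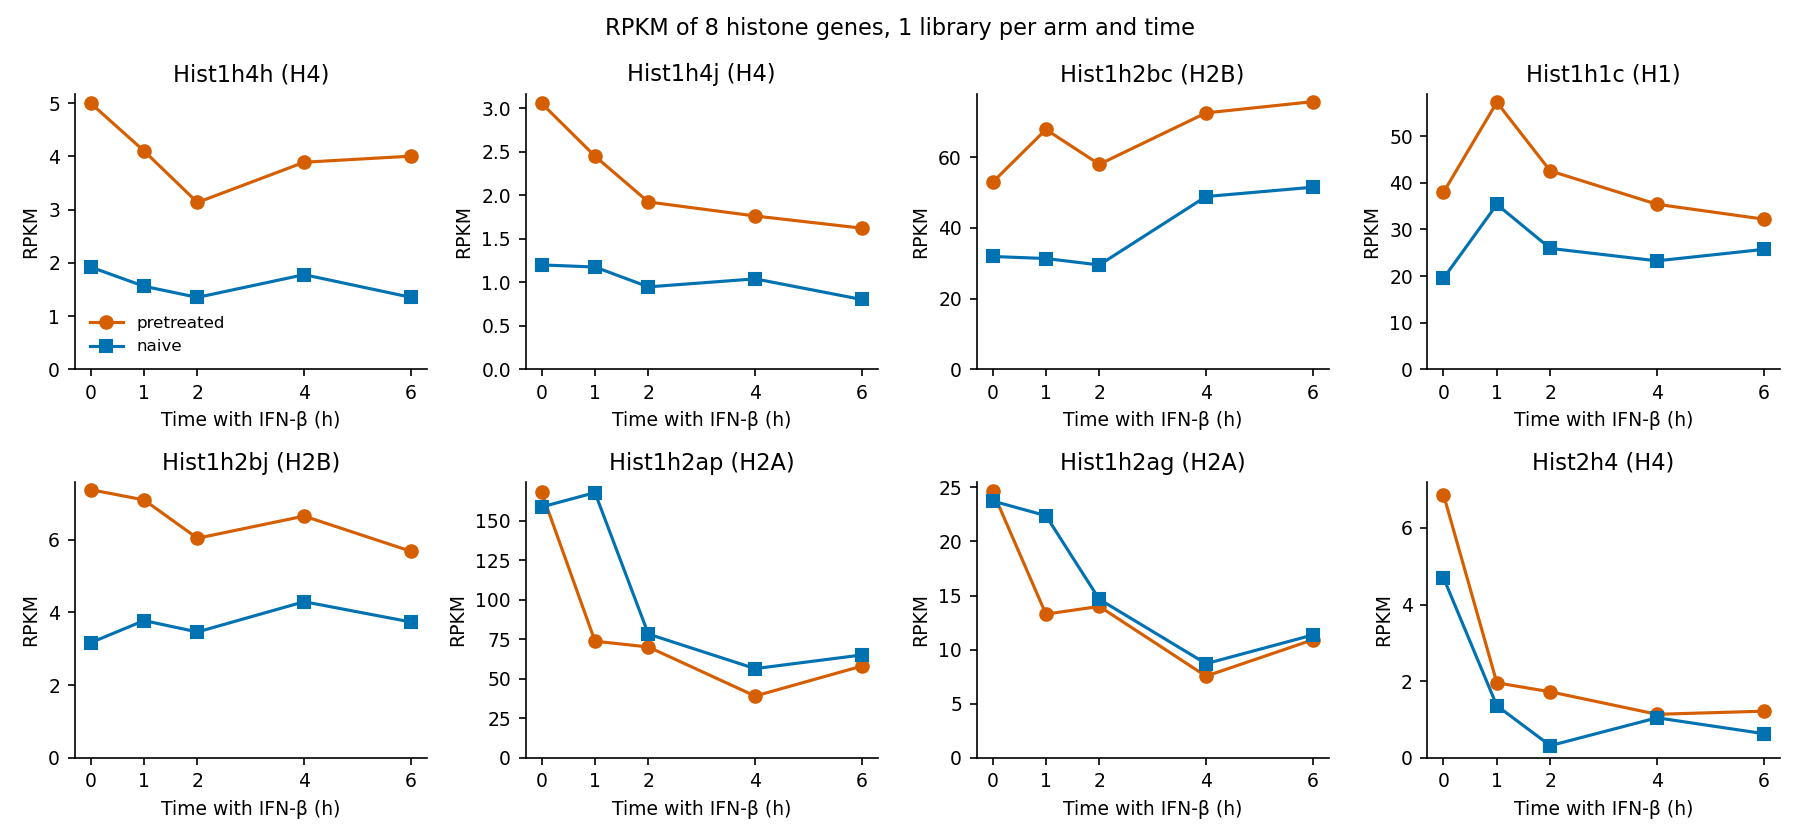
RPKM (vertical axes, from 0) against time with IFN-β in hours for 8 histone genes, pretreated in orange circles and naive in blue squares, 1 library per point. In the H4, H2B and H1 genes of the upper row the pretreated curve stays above the naive one. The H2A genes Hist1h2ap and Hist1h2ag, and Hist2h4, are lower at 2 to 6 h than at 0 h in both arms.

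Most other members of these 4 classes had the same order of the arms. Pretreated cells were higher at 5 of 5 times in 4 of 4 H1, 15 of 16 H2B, 12 of 12 H3 and 11 of 12 H4 genes, and in 0 of 18 H2A genes. Of all genes tested, 10.8% had that order. The exceptions were Hist2h2be among H2B genes and Hist1h4b among H4 genes. The filter did not require 1 RPKM in each arm. Hist1h3f passed it on pretreated libraries alone, with at most 0.664 RPKM in naive cells. Hist1h1b, Hist1h2be, Hist1h3a, Hist1h3h, Hist1h3i and Hist1h4f also needed a pretreated library to pass. Among H2A genes, Hist1h2aa needed a naive library. In these genes the order of the arms is not independent of the filter. All 5 pretreated libraries lay above all 5 naive ones in 22 members, against 1.39% of all genes, and below them in 0 members, against 0.871%. They were 15 of 16 H2B genes, 5 H4 genes (Hist1h4h, Hist1h4j, Hist1h4k, Hist1h4m and Hist1h4n) and 2 H3 genes (Hist2h3c1 and Hist2h3c2). Copies among these 22 may share reads, so they are not separate results to set against the share of all genes. Hist1h2bq and Hist1h2br had identical counts. In Hist1h4m, Hist1h4n, Hist2h3c1 and Hist2h3c2, 100% of the 50-base coding stretches occurred in another member. The smallest of the 16 H2B fold changes was -0.01 ± 0.12 for Hist2h2be of the Hist2 cluster, and the 15 others, all of the Hist1 cluster, ran between 0.68 and 1.03. Hist2h2be also differed in sequence, with 0 of its 50-base coding stretches found in another member. Each of the 15 others shared such stretches (38.2% to 100%) with 14 members. Whether cluster or shared reads play a part was not tested. Hist1h2bj, 1 of the 15, read 7.38, 7.10, 6.04, 6.65 and 5.69 RPKM in pretreated cells, against 3.17, 3.78, 3.46, 4.30 and 3.74 RPKM in naive cells. Its log2 fold change was 0.81 ± 0.15 (edgeR, adjusted p = 0.055), short of the threshold.

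By cluster, H2A genes differed in sign. In Hist1, 12 of 13 had a negative log2 fold change between the arms, down to -0.40 ± 0.18 for Hist1h2ap, and the other was 0.00 (Hist1h2ac). Of 4 in Hist2, 3 were positive, with Hist2h2aa1 and Hist2h2aa2 at 0.35 ± 0.13 each, and Hist3h2a of the Hist3 cluster stood at 0.48 ± 0.19. None of these passed the adjusted threshold in edgeR (smallest adjusted p = 0.192), and 3 had an unadjusted p under 0.05, with no share of all genes at that p given.

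**Figure D3:**
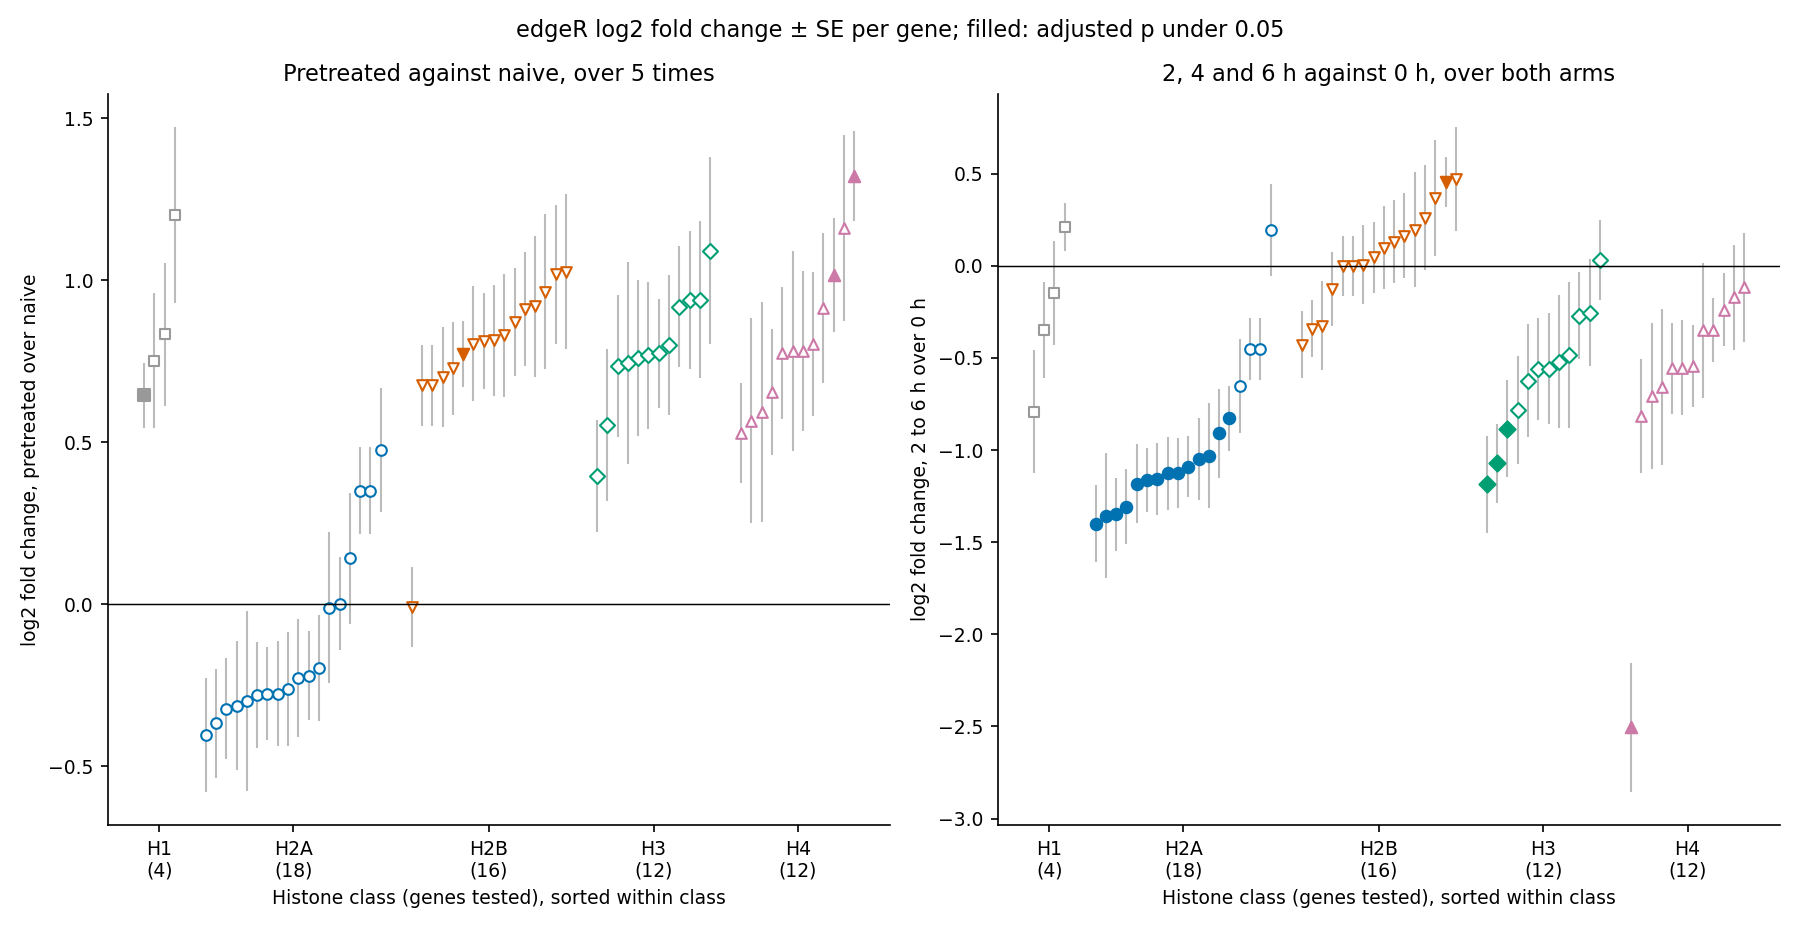
edgeR log2 fold change ± SE of each tested histone gene (vertical axes), sorted within class (horizontal axis), for pretreated over naive cells (left) and for 2 to 6 h over 0 h (right). Filled symbols had an adjusted p under 0.05, 4 on the left and 19 on the right. Most H2A genes lie below 0 on both sides.

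The sign was positive in 43 of 44 members other than H2A with each library left out in turn, but the calls were not kept. Without the pretreated 4 h or the naive 4 h library 2 members were called (Hist1h2bc and Hist1h4h), and without any other single library 0. Over all genes 154 were called with every library, 175 without the pretreated 4 h library, 159 without the naive 4 h library and 2 to 7 without any other single one. Without both the pretreated 1 h and 4 h libraries the median over the 44 members was 0.97, with 44 positive and 0 called (14 of all genes), and that over H2A genes was -0.03. Without the pretreated 0 h library, where Rn45s was highest, these medians were 0.67 and -0.36. Without the pretreated 1 h library they were 0.83 and -0.09. With time as a block, leaving out 1 library takes its whole time point out of the comparison of the arms. The 2 libraries of a time thus give nearly the same fit. Without the naive 0 h library the medians were 0.67 and -0.37, and without the naive 1 h library 0.84 and -0.08. Of 6 tested RNAs of other kinds that lack poly(A) tails, edgeR and DESeq2 called 0 between the arms and limma 1 (1 at an unadjusted edgeR p under 0.05). Among them, Rmrp read 76.0 RPKM in pretreated and 5.98 RPKM in naive cells at 0 h. Their median log2 difference was 2.12, 0.71, 0.25, -0.07 and 0.08 at 0, 1, 2, 4 and 6 h. The part of library preparation in the histone values was not tested.

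Outside H2A the members' arms were furthest apart at 0 h. There the pretreated library exceeded the naive one at least 2-fold in 21 of 62 members and fell short of it as far in 0, on log2(RPKM + 1) and with no test, as each group is 1 library. Of all genes, 2.56% were 2-fold higher and 0.838% lower. The 21 were 2 H1, 8 H2B, 5 H3 and 6 H4 genes, and 0 were H2A. Among them Hist1h1b, Hist1h3h and Hist1h3i needed a pretreated library to pass the filter, so their gap is not independent of it. The widest gap was that of the H4 gene Hist1h4d, with 6.61 RPKM in pretreated and 1.33 RPKM in naive cells (log2 difference 1.70). Hist1h4k stood at 3.76 RPKM in pretreated and 0.651 RPKM in naive cells (1.53). Hist1h2bl, an H2B gene, stood at 5.97 RPKM in pretreated and 1.49 RPKM in naive cells (1.49), and Hist1h3i, an H3 gene, at 3.82 RPKM in pretreated and 0.863 RPKM in naive cells (1.37). All 62 members were higher in the pretreated 0 h library, with a median log2 difference of 0.99 outside H2A and of 0.21 within it. Over all genes the median was 0, and the share of all genes higher in that library is not given here. Copies may share reads, and some of the 62, named above, needed a pretreated library to pass the filter, so the 62 are not separate results.

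Later the gap outside H2A was narrower, and in H2A it changed sign at 1 h. At 1 h, 2 members were 2-fold higher in pretreated cells (Hist1h2bc and Hist1h2bl) and 2 were 2-fold lower (Hist1h2ap and Hist1h2ao), against 1.55% and 0.814% of all genes. At 2 h, 6 were 2-fold higher and 0 lower (1.55% and 0.953% of all genes). Among the 6, Hist1h1b and Hist1h3i needed a pretreated library to pass the filter. At 4 h there were 0 either way (0.238% and 0.131%), and at 6 h 1 was higher, Hist1h4h (0.156%), and 0 lower (0.214%). The median log2 difference outside H2A was 0.53, 0.64, 0.34 and 0.39 at 1, 2, 4 and 6 h. Within H2A it was -0.77, -0.07, -0.19 and -0.07, and over all genes 0.02, -0.03, -0.01 and 0.05. Outside H2A, 44 of 44 genes were higher in pretreated cells at 2 h and at 4 h. The share of all genes with that order is not given here, and copies may share reads.

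A test of whether the arms changed differently after stimulation, an arm by stimulation term, called 0 members in edgeR (0.0% of all genes), with 15 at an unadjusted p under 0.05. The share of all genes at that unadjusted p is not given here. The term was negative in 60 of 62, with a median of -0.57, against -0.01 over all genes. Over the 6 tested RNAs of other kinds that lack poly(A) tails its median was -3.64. The term rests on 1 library per arm at 0 h, and Rn45s took 3.90% of counts in the pretreated one. Whether the negative term belongs to histone genes or to that library was not tested. The lowest value among the members was -2.09 ± 0.35 for Hist1h4d (edgeR, adjusted p = 0.326). The level of Hist1h4d was 6.61, 3.66, 3.11, 2.11 and 2.08 RPKM in pretreated cells, against 1.33, 3.35, 2.57, 1.80 and 1.64 RPKM in naive cells. This gene was the 1 member called by DESeq2 (adjusted p = 0.018; 1.09% of all genes) and by limma (adjusted p = 0.030; 0.123%). In 48 of 62 members all 4 later pretreated libraries lay below the pretreated 0 h library, against 32.5% of all genes. In 8 of 62 all 4 later naive libraries lay below the naive 0 h library, against 27.6% of all genes. These counts each rest on 1 library at 0 h. In 12 members, 0 of them H2A, all later pretreated libraries lay below and all later naive libraries above the 0 h library of their arm, against 1.51% of all genes.

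Library by library, on log2(RPKM + 1) and with no test, 3, 8, 18 and 14 of 62 members were 2-fold or more below the pretreated 0 h library at 1, 2, 4 and 6 h, against 0.255%, 1.11%, 1.92% and 0.616% of all genes. In naive cells 1, 2, 11 and 5 members were that far below their 0 h library, against 0.181%, 1.27%, 3.19% and 3.7% of all genes. H2A genes were 13 of the 18 in pretreated cells at 4 h and 10 of the 11 in naive cells at 4 h. On this scale 0 members were 2-fold or more above the 0 h library of either arm. Of all genes, 1.31%, 3.6%, 4.19% and 3.15% did so in pretreated cells and 2.02%, 3.95%, 5.71% and 6.2% in naive cells.

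H2A mRNA fell over the course. At 4 h, 18 of 18 H2A genes lay below the 0 h library in pretreated cells and 17 of 18 in naive cells. Their median log2 difference was -1.53 in pretreated and -1.16 in naive cells, against -0.09 over all genes in each arm. The share of all genes below 0 h at 4 h is not given here, and H2A copies may share reads. Time with IFN-β and time in culture cannot be told apart here. Against 0 h, the mean of 2, 4 and 6 h was lower in 18 members and higher in 1 in the same edgeR fit, against 20.0% of all genes lower and 19.9% higher (39.9% in either direction). Of the 18, 14 were H2A genes, 3 H3 genes and 1 an H4 gene. All 13 H2A genes of the Hist1 cluster were called lower, as was Hist2h2ac, while Hist2h2ab, Hist2h2aa1, Hist2h2aa2 and Hist3h2a were not. The median log2 fold change was -1.11 in H2A, 0.07 in H2B, -0.56 in H3, -0.55 in H4 and -0.25 in H1 genes. These values pool the arms, which differed in H3 and H4. On log2(RPKM + 1), the H3 median against 0 h was -0.46, -0.87 and -0.73 in pretreated cells at 2, 4 and 6 h. In naive cells it was -0.08, -0.04 and -0.02. The H4 median was -0.61, -0.70 and -0.62 in pretreated cells, against -0.01, -0.02 and -0.12 in naive cells. Each rests on 1 library at 0 h.

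Hist1h2ap, the most abundant member, read 168, 73.7, 70.1, 39.1 and 58.0 RPKM in pretreated cells from 0 to 6 h, and 159, 168, 78.2, 56.4 and 65.0 RPKM in naive cells. Its log2 fold change was -1.40 ± 0.21 (edgeR, adjusted p = 0.0056). At 1 h it was below its 0 h level in pretreated cells and above it in naive cells. Hist1h2ag read 24.6, 13.3, 14.0, 7.55 and 10.9 RPKM in pretreated cells, and 23.7, 22.4, 14.7, 8.70 and 11.4 RPKM in naive cells (log2 fold change -1.09 ± 0.17, edgeR, adjusted p = 0.0057). Hist1h2ac fell least among the called H2A genes, with a log2 fold change of -0.83 ± 0.18. At 1 h the median log2 difference between the arms over H2A genes was -0.77, against 0.02 over all genes. In that comparison 17 of 18 H2A genes were lower in the pretreated library, and their copies may share reads.

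Hist2h4, the H4 gene of the Hist2 cluster, fell furthest. It read 6.87, 1.96, 1.72, 1.14 and 1.22 RPKM in pretreated cells and 4.70, 1.36, 0.318, 1.04 and 0.631 RPKM in naive cells (log2 fold change -2.51 ± 0.35, edgeR, adjusted p = 0.0053). The 0 h library was the highest of each arm. The 3 H3 genes called lower were Hist1h3a (-1.19 ± 0.26), Hist1h3c (-1.07 ± 0.21) and Hist1h3g (-0.88 ± 0.26). Hist1h2bc was the single member called higher (0.46 ± 0.14, edgeR, adjusted p = 0.035). It stood at 58.0 to 75.7 RPKM in pretreated and 29.5 to 51.5 RPKM in naive cells at 2 to 6 h. Its adjusted p was above 0.05 (0.0673 to 0.170, edgeR) without either 0 h library and without the pretreated 2 h, naive 4 h or naive 6 h library, with log2 fold changes of 0.39 to 0.48.

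The counts were lowest without a 0 h library. Without the naive 0 h library 0 members and 8 of all genes were called, against 19 members and 4859 of all genes with every library. Without the pretreated 0 h library 5 members (Hist1h2ag, Hist1h2ah, Hist1h2ak, Hist1h2ap and Hist2h4) and 2075 of all genes were called. The H2A median was -1.36 and -0.80 in these fits, and 17 of 18 H2A genes stayed negative. Outside H2A the median changed sign without the pretreated 0 h library, to 0.15 with 28 of 44 positive, against -0.33 with all libraries. Without the pretreated 1 h and 4 h libraries 15 members and 4105 of all genes were called, and the H2A median was -1.06. At 1 h against 0 h, edgeR called 0 members (0.0% of all genes) and 2 had an unadjusted p under 0.05, while DESeq2 called 1, Hist1h1c (log2 fold change 0.72 ± 0.18, adjusted p = 0.0063), and limma 0. Of all genes, DESeq2 called 1.94% and limma 0.0411%.

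H2A and H2B genes were also compared within divergent pairs, whose shared stretch is at most 500 bases (11 pairs). The RPKM ratio of Hist1h2ai to Hist1h2bl was 6.58, 2.88, 2.90, 2.21 and 3.26 in pretreated cells at 0 to 6 h, against 20.3, 13.5, 6.06, 4.03 and 5.67 in naive cells. Between Hist1h2ac and Hist1h2bc, whose shared stretch is printed above, the ratio was 0.105, 0.0502, 0.0573, 0.0302 and 0.0369 in pretreated cells, against 0.135, 0.157, 0.0954, 0.0477 and 0.0502 in naive cells. Between Hist1h2ae and Hist1h2bg it was 2.15, 1.08, 0.928, 0.705 and 1.30 in pretreated cells, against 3.95, 4.43, 2.36, 1.36 and 1.89 in naive cells. In each of these pairs the pretreated ratio was the lower one at every time.

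In all, 10 of 11 pairs had a lower ratio in pretreated cells at 5 of 5 times, with a median log2 difference of -1.10 over all 11. The exception was Hist2h2ac with Hist2h2be, at -0.00 ± 0.49 (SD over 5 times). An exact sign-flip permutation test over the 5 times, two-sided, gave p = 0.0625 for each of the 10. That is the smallest p that 5 times allow, so no pair could pass 0.05, and the pairs share their libraries. Copies in different pairs may also share reads, so the 10 are not separate results. The H2B gene of the exception, Hist2h2be, had 0 of its 50-base coding stretches in another member. Whether shared reads play a part was not tested, and no share of other gene pairs with this order is given.

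**Figure D4:**
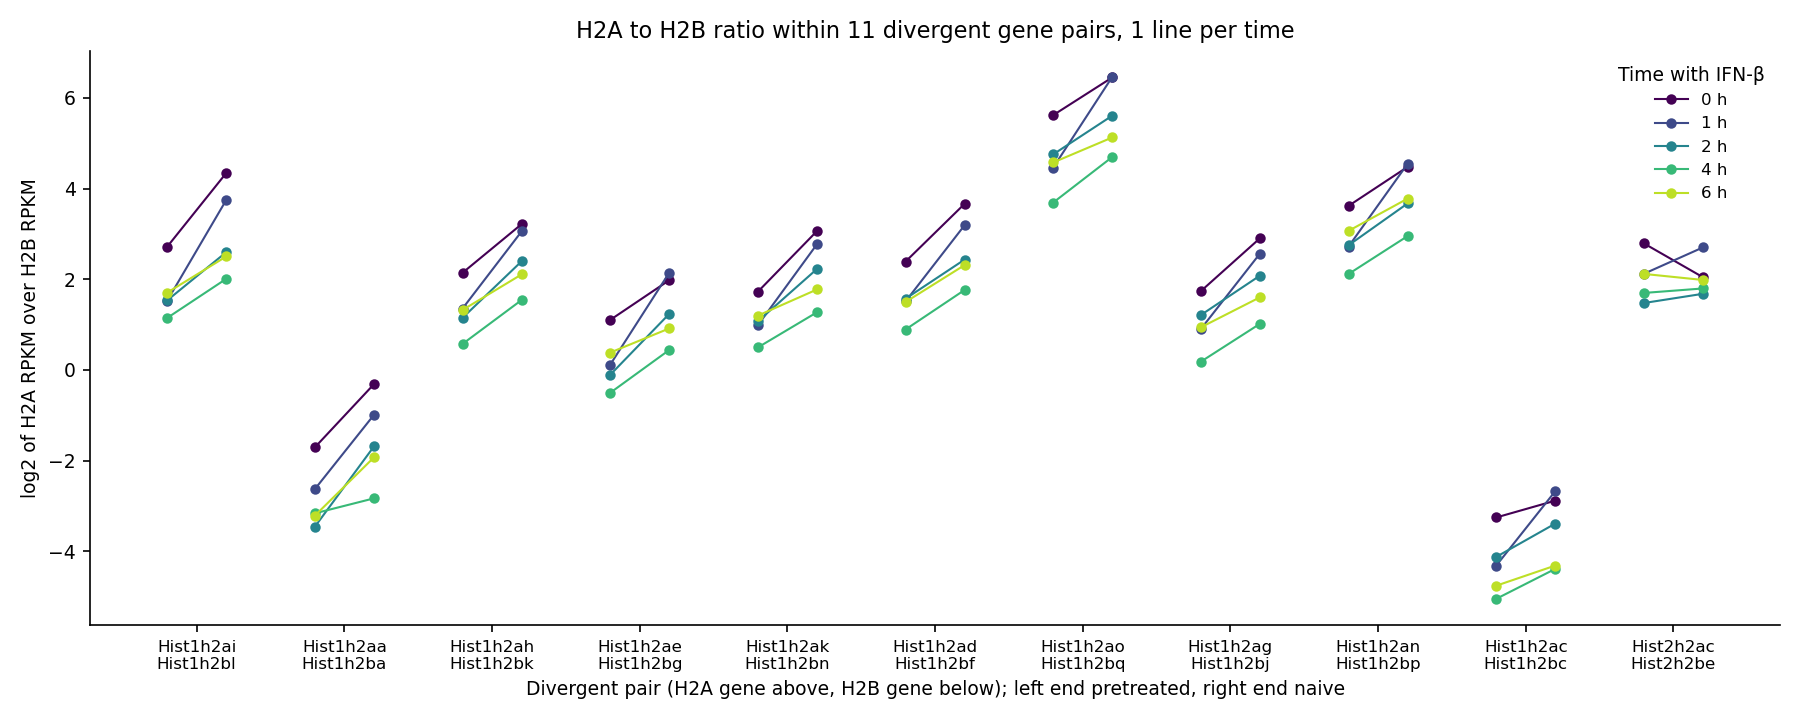
log2 of the H2A over H2B RPKM ratio (vertical axis) in 11 divergent gene pairs (horizontal axis), with 1 line per time that joins the pretreated library (left end) to the naive library (right end). Lines climb from pretreated to naive in 10 of 11 pairs, and in Hist2h2ac with Hist2h2be they run both ways.

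Among genes that act on histone mRNA, edgeR, DESeq2 and limma each called 0 of 13 tested genes of 3' end processing between the arms (2 at an unadjusted edgeR p under 0.05, median log2 fold change -0.04). For this and the lists that follow, the share of all genes at that unadjusted p is not given. Slbp, the stem-loop binding protein gene, read 24.6, 17.5, 20.0, 18 and 20.0 RPKM in pretreated cells and 29.6, 22.5, 19.9, 15.9 and 18.9 RPKM in naive cells. Its log2 fold change was -0.09 between the arms (edgeR, adjusted p = 0.607) and -0.46 ± 0.12 over time (edgeR, adjusted p = 0.020). Over time, 4 of the 13 fell (Slbp, Lsm11 and Sympk of the cleavage machinery, and Srrt) and Cpsf2, a cleavage subunit, rose. Of all genes, 20.0% fell and 19.9% rose in the same edgeR test. Of 9 genes of histone mRNA decay, 0 were called between the arms by any of these tools (0 at an unadjusted p under 0.05, median 0.08). Dcp2, a decapping enzyme, Xrn1, an exonuclease, and the uridylating enzymes Zcchc6 and Zcchc11 rose over time, with log2 fold changes of 1.97, 1.57, 1.29 and 0.83. Of 12 genes of histone gene transcription, edgeR and limma called 0 between the arms and DESeq2 called 1 lower (2 at an unadjusted edgeR p under 0.05). DESeq2 called 11.3% of all genes in either direction (4.73% called higher). Npat, the coactivator of histone genes, rose over time (0.57 ± 0.14, edgeR, adjusted p = 0.021), and Cdk2 fell (-0.38 ± 0.10, adjusted p = 0.0215).

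Cell cycle genes mostly fell over time. Of all genes tested, edgeR called 20.0% lower and 19.9% higher over time, and 0.879% lower between the arms. Between the arms DESeq2 called 11.3% and limma 1.83% of all genes in either direction (4.73% and 0.92% called higher). Of 23 genes of DNA replication and S phase, 16 fell and 1 rose over time (edgeR, median -0.57), and 0 were called between the arms (median -0.19, with 8 at an unadjusted p under 0.05). With no share of all genes at that unadjusted p, the 8 cannot be weighed. DESeq2 called 4 of them lower in pretreated cells and limma 0. Rrm2, of deoxynucleotide synthesis, read 43.9, 26.8, 33.2, 17.6 and 24.5 RPKM in pretreated cells and 47.6, 45.2, 41.6, 22.2 and 19.6 RPKM in naive cells. The list's median log2 difference between the arms was -0.08, -0.55, -0.17, -0.10 and 0.08 at 0, 1, 2, 4 and 6 h. Of 16 mitosis genes, 15 fell and 1 rose over time (median -0.77), and 16 were lower in pretreated cells at 5 of 5 times, against 9.77% of all genes. Between the arms 4 of them were called lower, among them Mki67 (-0.78, edgeR, adjusted p = 0.036) and Ccnb2 (-0.58, adjusted p = 0.021), while DESeq2 called 13 lower and limma 3.

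Replacement histone variants such as H2afv, Cenpa and H3f3a are encoded by genes outside the histone clusters. Of 11 tested, 2 were called lower in pretreated cells (H2afv at -0.39 and Cenpa at -0.56, edgeR, adjusted p = 0.045 and 0.021) and 0 higher, with a median of -0.31. Of all genes, edgeR called 0.879% lower and 0.386% higher between the arms. DESeq2 called 7 of the variants lower and limma 1, against 11.3% and 1.83% of all genes called in either direction (4.73% and 0.92% called higher). H3f3b, replaced by the knock-in cDNA in every library, read 10.6 to 12.8 RPKM in pretreated and 11.9 to 14.9 RPKM in naive cells. Over time, 7 of the 11 fell and 1 rose, against 20.0% and 19.9% of all genes. H2afx fell by 1.40 on the log2 scale and H1fx by 1.46, while H3f3a rose by 0.27. Of 19 histone chaperone genes, edgeR and limma called 0 between the arms and DESeq2 called 3 lower (5 at an unadjusted edgeR p under 0.05). Over time 7 fell, among them Chaf1a, Chaf1b and Asf1b of replication-coupled assembly, and 5 rose, among them Daxx, an H3.3 chaperone and interferon-induced gene, by 2.52 and Asf1a by 1.07.

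**Figure D5:**
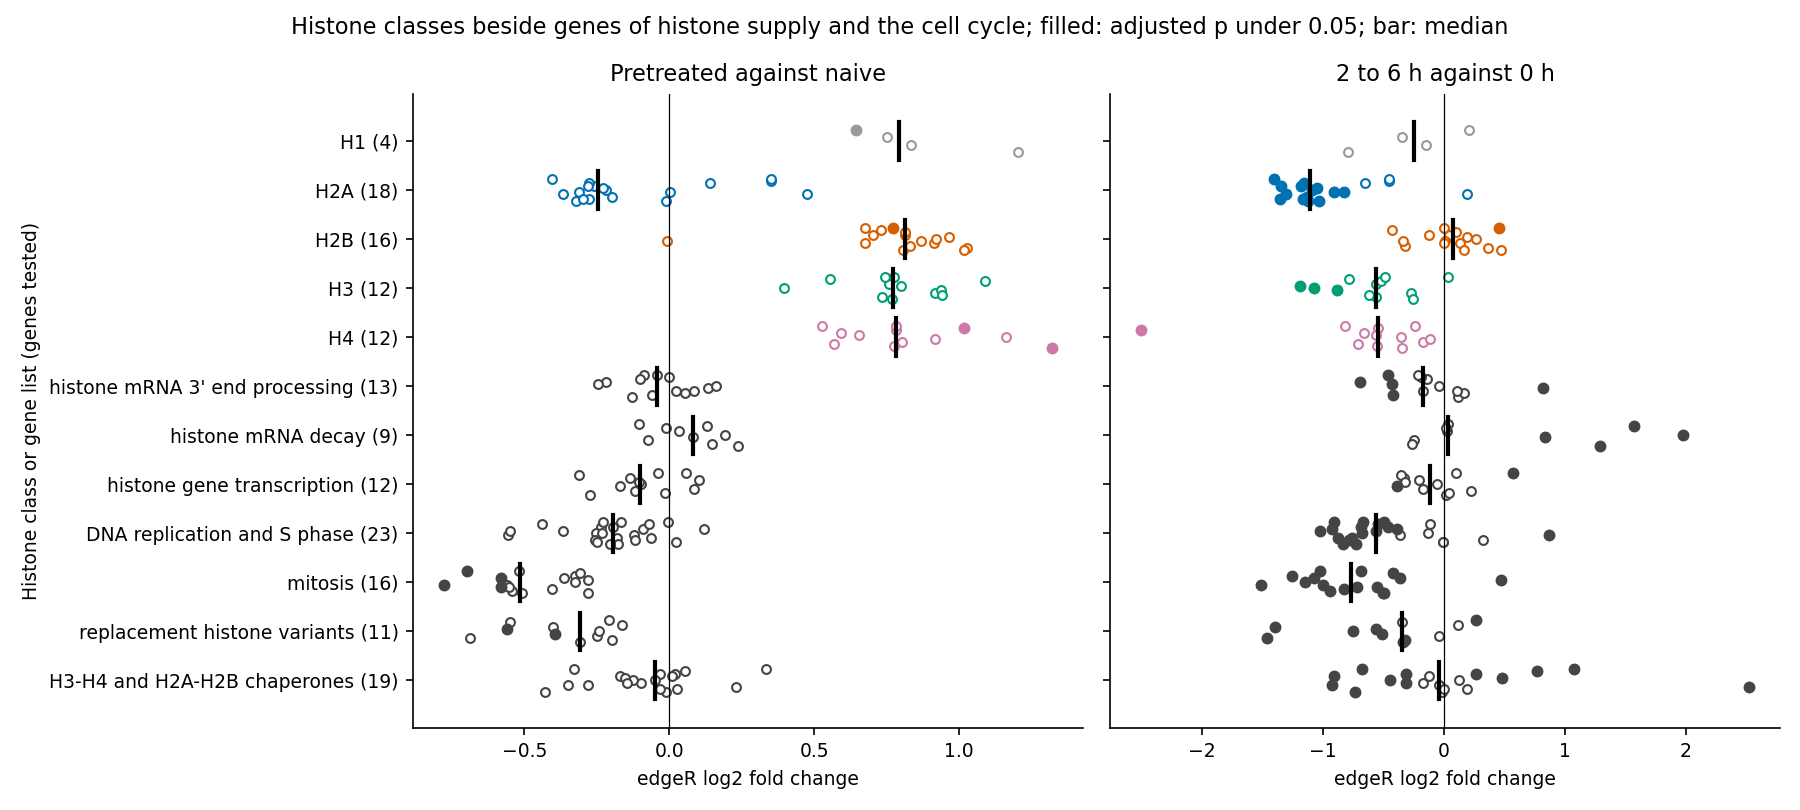
edgeR log2 fold change (horizontal axes) of each tested gene by histone class or gene list (vertical axis), for pretreated over naive cells (left) and 2 to 6 h over 0 h (right). Bars are medians, and filled points had an adjusted p under 0.05. On the left the medians of H1, H2B, H3 and H4 lie between 0.77 and 0.81 and that of mitosis genes at -0.51. On the right H2A has the lowest median, -1.11.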

How the data were processed

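The authors deposited, per the file headers, a table of mm10 RefSeq transcripts with raw tag counts and RPKM for each of the 10 libraries. Tools listed in the submitters' processing notes are Cufflinks 1.2.1, TopHat and Bowtie, with build mm10, and no role is given for them. The counting tool, strand use and handling of reads with several matches are not stated there. The 15 transcripts with no gene name (at most 0.0193% of counts) were left out, and all 10 libraries entered each fit. The counts as deposited were tested with edgeR 4.0.16 (R 4.3.3, glmQLFit and glmQLFTest, TMM scaling, time point plus arm, 4 residual degrees of freedom), with Benjamini-Hochberg adjustment over the 12168 genes tested and a threshold of 0.05. An arm by stimulation term left 3 residual degrees of freedom. Counts at an unadjusted p under 0.05 are printed without the share of all genes at that p. Single libraries were compared on log2(RPKM + 1), with no test. That scale understates the change of genes with low levels. DESeq2 1.42.0 and limma 3.58.1 (on log2(RPKM + 1)) served as alternatives. Scripts were checked on simulated counts.

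Nothing states that libraries came from separate cultures. Counts of a tested member ran down to 11 per library. Sequence searches used GENCODE M21 and RefSeq promoters matched by Entrez ID. The members and gene lists were chosen with earlier results of these data known. Genes named are the 15 members of highest mean RPKM, those called, those 2-fold apart at 0 h, those nearest the filter, and, of the other lists, those called or of highest mean. Hist1h2bg, Hist1h2be, Hist1h4b, Hist1h4f, Hist2h2be, Hist2h3c1, Hist2h3c2, Hist1h4m and Hist1h4n were named after their values were seen.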

Additional observations from a re-analysis of the deposited data

How the results depend on the processing

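Between the arms, 4 members were called, and 4 under DESeq2 size factors, 4 with library totals only and 6 with counts summed over transcripts. The count was 9 with no filter (317 of 20289 genes in all), 2 with a 5 RPKM filter (24 members tested, 107 of 9360 genes), 30 in DESeq2 (1371 of 12168), 19 in limma (223), 0 without the pretreated 1 h and 4 h libraries, and 0 to 2 with 1 library left out. Every call under these settings was higher in pretreated cells. Over 2 to 6 h against 0 h, the 19 calls became 13 to 27 under the other settings, 15 without the pretreated 1 h and 4 h libraries, and 0 to 21 with 1 library left out, with 0 for the naive 0 h library and 5 for the pretreated 0 h library. At 1 h the count of 0 became 1 in DESeq2, and for the arm by stimulation term it became 1 in DESeq2 and 1 in limma. With 1 library left out both stayed at 0. At 0 h, the 21 members 2-fold apart became 33 on log2(RPKM + 0.1), 5 with a 5 RPKM filter, 20 after TMM rescaling and 21 with no filter. The cause of these shifts was not tested, except that the 5 RPKM filter leaves fewer members. No result changed sign under any of these settings among the members called. The arm by stimulation term was not run without a 0 h library. No pairing by replicate number was possible because each arm and time has 1 library, so groups share fewer than 2 replicate numbers. The arms are paired by time point in the test itself. Over all genes the median log2 fold change between the arms was -0.00.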
